A study of Mus musculus with 16 samples.

Results

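The thrombospondins are a family of 5 secreted, calcium-binding glycoproteins, and all 5 genes of the family (Thbs1, Thbs2, Thbs3, Thbs4 and Comp) were followed here in mouse liver, out of 36450 gene names on the array and 24357 genes tested. They were chosen by the gene name of their probes. The family was selected on earlier results of these arrays, because Thbs4 rose strongly after carbon tetrachloride (CCl4) and varied among the treated knockout livers. The CCl4 responses, genotype differences and array-to-array spread of Thbs4 are therefore given as a description, with no test. Tests are read for Thbs1, Thbs2 and Thbs3, while Comp passed the filter on dim probes mostly through the WT CCl4 arrays, where it was highest, and is described by its values.

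The animals were male BALB/c mice aged 6 to 8 weeks at the start, either wild type (WT) or lacking lipocalin 2 in every cell (Lcn2-/-). The knockout had been made on a 129/Ola and C57BL/6 background and then crossed into BALB/c. CCl4 is made into a reactive radical by hepatocytes, and repeated doses lead to fibrosis. It was injected intraperitoneally in corn oil at 0.5 ml/kg, 2 times per week for 4 weeks, and livers were taken 48 h after the last injection. Controls received corn oil. Total RNA of whole liver was hybridised to 16 one-colour arrays, with 4 in WT control, 3 in Lcn2-/- control, 5 in WT CCl4 and 4 in Lcn2-/- CCl4. The sources do not say outright that each array is a different animal, so p-values measure the spread between these arrays.

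Thrombospondins act mostly outside cells as matricellular proteins, which adjust how cells read the matrix and do not build it. Thbs1 and Thbs2 form trimers, carry the type 1 repeats that bind CD36, and Thbs1 can release transforming growth factor beta (TGF-beta) from its latent complex. Thbs3, Thbs4 and Comp form pentamers, lack these repeats and are best known from cartilage, tendon and muscle, while Thbs1 is also stored in platelets. In liver the family is studied mainly in fibrosis, where activated stellate cells lay down collagen.

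Levels are given on a log2 scale after quantile normalization of the probe signals, so that a difference of 1 means 2-fold. A level is compared only with the same probe on other arrays. Where groups are said not to overlap, the share of all genes without overlap was not counted, so this is a description. Adjusted p is from limma after Benjamini-Hochberg over all 24357 genes, and a gene counts as changed when it is under 0.05. Because whole liver was used, fewer cells of a type and less RNA per cell cannot be told apart. Between 51.6% and 60.9% of the spots of an array were well above background. Lcn2, the deleted gene, was lower on every Lcn2-/- array (10.47 to 12.25) than on every WT array (13.79 to 17.57), although its probe was still well above background on the Lcn2-/- arrays too. All controls and WT CCl4 1 were on slide 1 of the arrays, and the other CCl4 arrays on slide 2, so slide and treatment are nearly the same split. Within Lcn2-/- they are wholly the same split. With slide as a fixed block, the responses of both genotypes therefore rest on WT CCl4 1. In WT this block gives the same difference as the fit within slide 1. Among the controls, WT control 3 and Lcn2-/- control 3 had the highest Thbs1 signal of their groups, and the member results and list counts that move with them are also given without both, a choice made after seeing the data.

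The promoters are shown because Thbs1, Thbs2, Thbs3 and Thbs4 all rose after CCl4, so that upstream bases of members can be set side by side. RefSeq windows of assembly GRCm38.p6 were at hand for 3 of the 5 members, and the 250 bases before the start site are printed 5′ to 3′ on the strand of the gene. Capitals mark matches, on either strand and with any overlap allowed, to 5 motifs. They are CAGAC for SMAD factors, GGAATG for TEAD factors, TATAAA for the TATA box, TGANTCA for AP-1 and ACGTG for the core of a hypoxia element. Thbs2 is at chr17:14694263-14694512 on the minus strand, Thbs3 at chr3:89214930-89215179 on the plus strand and Thbs4 at chr13:92794819-92795068 on the minus strand.
Thbs2 promoter: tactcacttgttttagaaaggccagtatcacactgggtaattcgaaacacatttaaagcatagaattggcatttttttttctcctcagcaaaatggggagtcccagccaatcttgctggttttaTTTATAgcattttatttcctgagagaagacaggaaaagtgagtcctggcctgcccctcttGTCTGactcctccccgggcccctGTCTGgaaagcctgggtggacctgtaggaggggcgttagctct
Thbs3 promoter: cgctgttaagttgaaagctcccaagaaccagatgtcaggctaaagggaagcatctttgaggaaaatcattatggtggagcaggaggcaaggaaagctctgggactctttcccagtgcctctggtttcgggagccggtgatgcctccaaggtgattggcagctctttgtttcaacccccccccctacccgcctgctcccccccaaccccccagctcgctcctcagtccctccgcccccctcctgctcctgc
Thbs4 promoter: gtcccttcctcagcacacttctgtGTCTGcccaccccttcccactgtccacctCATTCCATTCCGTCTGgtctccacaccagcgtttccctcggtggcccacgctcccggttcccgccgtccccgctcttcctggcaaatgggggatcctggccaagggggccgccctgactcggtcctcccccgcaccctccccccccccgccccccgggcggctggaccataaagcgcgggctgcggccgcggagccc

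The Thbs4 window held 2 TEAD matches, at bases -197 and -192 from the start site, and 2 SMAD matches, at -226 and -186, so that 3 of the 4 lie within one stretch. The Thbs2 window held 2 SMAD matches, at -66 and -43, and 1 TATAAA match, at -126. The Thbs3 window held none of the 5 motifs. Of 32851 windows of this length, 42.2% held a SMAD match, 12.6% a TEAD match, 12.4% TATAAA, 6.75% an AP-1 match and 16.6% ACGTG. GC content was 46.8% for Thbs2, 58.8% for Thbs3 and 70.8% for Thbs4 over these bases. A match of letters is not a bound site, and binding was not measured.

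Each member had 1 probe of 60 bases, except Thbs3, which had 2 probes that share 45 bases. On the mm9 build of the files, the probes lie at chr2:117952585-117952644 for Thbs1 (plus strand), chr3:89030667-89030726 and chr3:89030682-89030741 for Thbs3 (plus strand) and chr13:93521565-93521624 for Thbs4 (minus strand). The probes of Thbs2 and Comp are printed because their 60 bases span 1264 and 134 bases of genome, so each covers 2 pieces of the gene that splicing joins. Which exons these are was not analysed here. The Thbs2 probe lies at chr17:14804526-14805789 on the minus strand and the Comp probe at chr8:72905692-72905825 on the plus strand.
Thbs2 probe: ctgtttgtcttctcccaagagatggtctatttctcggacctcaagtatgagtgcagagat
Comp probe: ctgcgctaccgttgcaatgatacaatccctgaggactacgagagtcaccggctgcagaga

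After CCl4, Thbs1, Thbs2 and Thbs3 rose in both WT and Lcn2-/- liver. The rise was 5.59-fold in WT and 8.60-fold in Lcn2-/- for Thbs2, 4.80-fold and 5.07-fold for Thbs1, and 2.52-fold and 2.11-fold for Thbs3. Thbs1 and Thbs2 have no firm order in WT, since without WT control 3 their rises were 2.65 and 2.64 on the log2 scale. Thbs4 went from not well above background on the controls to well above it on all CCl4 arrays. Its signal was strong on the WT CCl4 arrays and uneven on the Lcn2-/- CCl4 arrays, from 6.11 to 11.63. For comparison, 16.8% of all genes tested changed in WT (8.01% higher), and 12.2% changed in Lcn2-/- (6.57% higher). The median difference of the 3 members was 2.26 in WT and 2.34 in Lcn2-/-, against −0.03 and −0.02 over all genes tested.

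**Figure D1:**
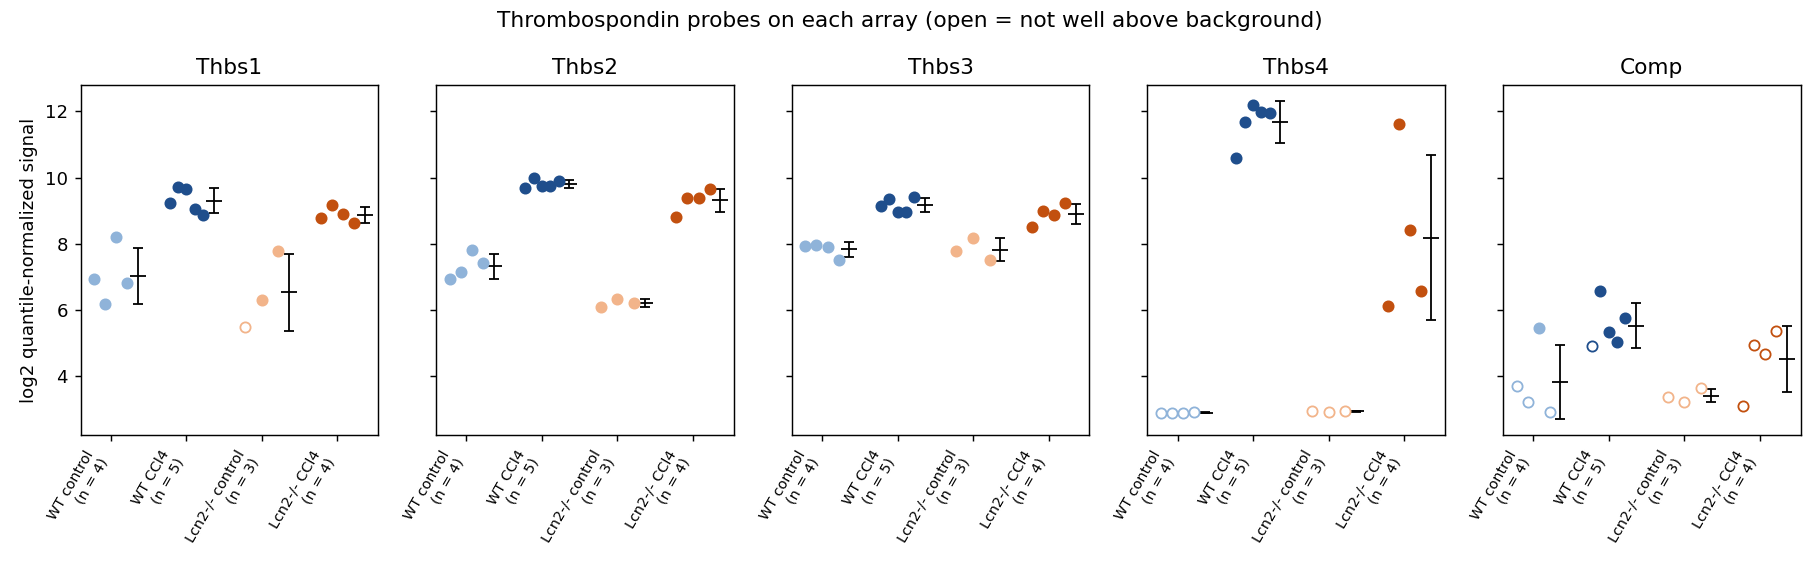
Log2 quantile-normalized signal (y axis) of the 5 members on each of the 16 arrays, by group (x axis), with the group mean and SD beside the points. Open points were not well above background. Thbs2 does not overlap between control and CCl4 arrays, and Thbs4 is open on all 7 control arrays and spread from 6.11 to 11.63 in Lcn2-/- CCl4.

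Thbs1, the activator of latent TGF-beta and inhibitor of new vessels, measured 6.95, 6.18, 8.20 and 6.82 in WT control 1 to 4, and 9.24, 9.72, 9.64, 9.04 and 8.87 in WT CCl4 1 to 5. In Lcn2-/- it measured 5.50, 6.31 and 7.78 in control 1 to 3, and 8.79, 9.18, 8.89 and 8.61 in CCl4 1 to 4. All CCl4 arrays lay above all controls of their genotype, and 1 array, Lcn2-/- control 1, was not well above background. In WT the mean of Thbs1 was 2.26 higher after CCl4, with an SE of 0.424 (limma adjusted p 0.00209). In Lcn2-/- it was 2.34 higher, with an SE of 0.483 (limma adjusted p 0.00572). With slide as a fixed block the rises were 2.20 (limma adjusted p 0.106) and 2.26 (limma adjusted p 0.235) and no longer passed. Both of these rest on WT CCl4 1. Within slide 1, where WT CCl4 1 alone was set against the WT controls, the rise was 2.20, and only its size is read.

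The control arrays were more spread than the treated ones, with an SD of 0.844 in WT control and 1.16 in Lcn2-/- control against 0.373 and 0.236 after CCl4. The controls with the highest Thbs1 were WT control 3 and Lcn2-/- control 3, and markers of neutrophils, macrophages and platelets were high on the same arrays. The summed level of 11 neutrophil markers was 15.40 on WT control 3 against 13.22 to 13.69 on the other WT controls, and 15.86 on Lcn2-/- control 3 against 12.92 and 13.21. That of 12 macrophage markers was 18.23 against 16.50 to 16.88, and 18.15 against 16.64 and 16.56. Platelet markers summed to 14.12 on WT control 3 against 13.29 to 13.42, and to 14.40 on Lcn2-/- control 3 against 13.03 and 13.11. The summed level of lymphocyte markers was not high there, at 15.71 within the 15.43 to 15.91 of the WT controls and at 15.61, the lowest of the Lcn2-/- controls. Single lymphocyte markers did not all follow that sum. Without both arrays, the median CCl4 difference of the list went from −0.33 to 0.27 in WT and from 0.11 to 0.77 in Lcn2-/-. The part of these cells in the Thbs1 level was not tested. Without both arrays, the rises were 2.65 (limma adjusted p 2.02e-05) and 2.97 (limma adjusted p 6.87e-05).

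Thbs2, which binds matrix metalloproteinases and shapes collagen fibrils, measured 6.94, 7.14, 7.80 and 7.41 in WT control 1 to 4, and 9.68, 9.98, 9.75, 9.73 and 9.88 in WT CCl4 1 to 5. In Lcn2-/- it measured 6.08, 6.33 and 6.22 in the controls, and 8.82, 9.38, 9.40 and 9.66 in CCl4 1 to 4. The lowest treated array was 1.88 above the highest control in WT and 2.49 above it in Lcn2-/-. In WT the mean of Thbs2 was 2.48 higher after CCl4, with an SE of 0.18 (limma adjusted p 1.71e-06). In Lcn2-/- it was 3.10 higher, with an SE of 0.205 (limma adjusted p 7.74e-07). Leaving aside the slide fits that rest on WT CCl4 1, both responses passed under all alternatives, with limma adjusted p of at most 0.0411 in Lcn2-/-. Within slide 1, where WT CCl4 was 1 array, the WT rise of Thbs2 was 2.36. It was the same with slide as a fixed block, and only this size is read.

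Among Thbs1, Thbs2 and Thbs3, the members whose tests are read, Thbs2 was also the one whose level differed between genotypes. In controls it was lower in Lcn2-/-, at 6.21 ± 0.126 (SD, n = 3) against 7.32 ± 0.373 (SD, n = 4). The difference of −1.11 (SE 0.205) passed (limma adjusted p 0.0217, where 0.53% of genes tested passed). Same-numbered arrays of the 2 control groups correlated, although no label states a pairing. With the number as a block in a fit of these 2 groups the difference was −1.09 (limma adjusted p 0.213). The same block in the model of all groups gave −1.07 (limma adjusted p 0.0418). The call was lost without WT control 4 (0.0707), Lcn2-/- control 1 (0.119), Lcn2-/- control 2 (0.0566) or Lcn2-/- control 3 (0.0629), all limma adjusted p.

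After CCl4 the same order held with a smaller gap. Lcn2-/- measured 9.31 ± 0.356 (SD, n = 4) and WT 9.81 ± 0.12 (SD, n = 5), and the highest Lcn2-/- array lay 0.02 below the lowest WT array. The difference of −0.49 (SE 0.18) did not pass over all genes (limma p 0.0159, adjusted p 0.261). The response itself was larger in Lcn2-/- by 0.62 (SE 0.273), which did not pass either (limma p 0.0389, adjusted p 1.00).

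Thbs3, a pentameric member of bone and cartilage, measured 7.93, 7.97, 7.92 and 7.50 in WT control 1 to 4, and 9.14, 9.34, 8.97, 8.96 and 9.41 in WT CCl4 1 to 5. In Lcn2-/- it measured 7.78, 8.18 and 7.50 in the controls, and 8.52, 8.99, 8.85 and 9.23 in CCl4 1 to 4. The treated and control arrays did not overlap in either genotype. In WT the mean of Thbs3 was 1.33 higher after CCl4, with an SE of 0.174 (limma adjusted p 0.000139). In Lcn2-/- it was 1.08 higher, with an SE of 0.198 (limma adjusted p 0.00275). The second Thbs3 probe rose by 1.32 in WT and by 1.48 in Lcn2-/-, so the order of the genotypes' responses differed between probes. Within slide 1, where WT CCl4 was 1 array, the WT rise was 1.31, and only its size is read. With slide as a fixed block the Lcn2-/- rise was 1.05 (limma adjusted p 0.173) and no longer passed.

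The 2 Thbs3 probes also differed in the untreated livers. The difference of Lcn2-/- control minus WT control was −0.01 for the tested probe (SE 0.198) and −0.49 for the other (SE 0.188, limma adjusted p 0.444 over 33014 probes). Neither passed.

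Comp, the cartilage oligomeric matrix protein, was dim on its probe. It was well above background on 1 of 4 arrays in WT control, 4 of 5 in WT CCl4, and none in Lcn2-/- with or without CCl4. The WT controls measured 3.70, 3.21, 5.45 and 2.93, the single such control being WT control 3, and WT CCl4 1 to 5 measured 4.90, 6.58, 5.34, 5.02 and 5.76. These ranges overlapped through WT control 3. The fitted difference was 1.70 (SE 0.529, limma adjusted p 0.0407). It is set against controls of which 3 of 4 were not well above background, and 4 of the 5 arrays that let Comp through the filter were WT CCl4 arrays, so no rise is read from it. The p was over 0.05 in 9 of the 16 fits that left out 1 array, up to an adjusted p of 0.127 in limma. Within slide 1 the difference was 1.08, and without both control 3 arrays 2.24.

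In Lcn2-/-, Comp measured 3.37, 3.23 and 3.64 in the controls and 3.10, 4.94, 4.68 and 5.36 after CCl4, none well above background, so no fold is given. The Lcn2-/- CCl4 values overlapped the WT CCl4 values.

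**Figure D2:**
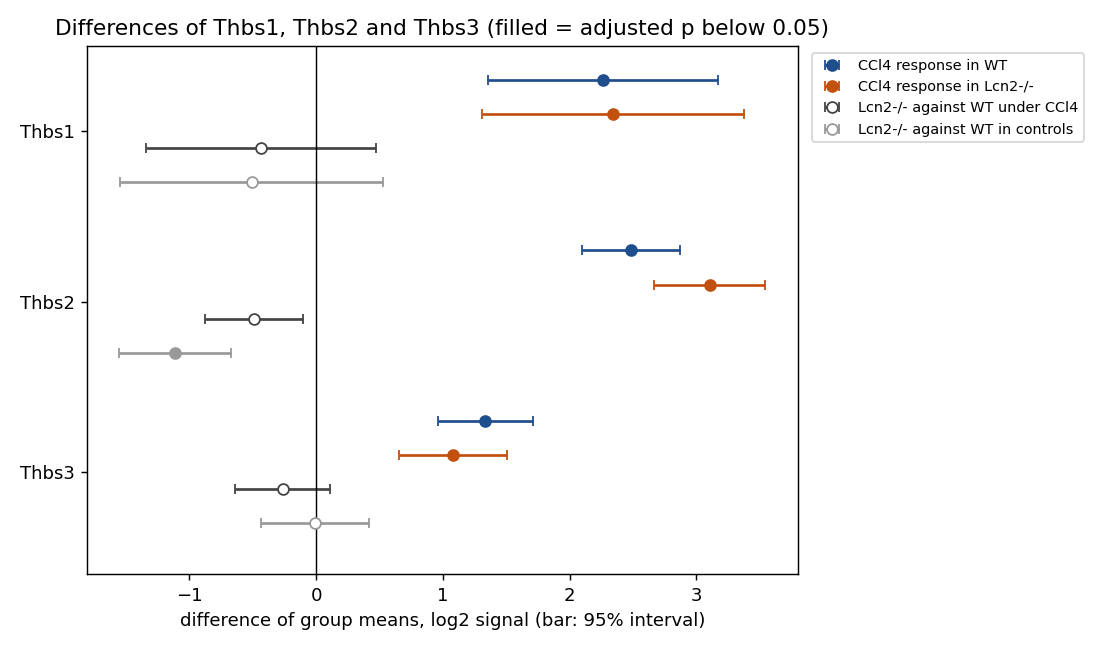
Difference of group means on the log2 scale (x axis) with its 95% interval for Thbs1, Thbs2 and Thbs3 (y axis), one point per comparison and filled where the adjusted p was below 0.05. The CCl4 responses lie to the right of 0, and among the genotype comparisons the one filled point is Thbs2 in controls, at −1.11.

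Between genotypes, 1 of these 3 members, Thbs2, changed in controls, and 0 of 3 passed in limma after CCl4, where 0.636% of all genes passed and 1 of the 3 had an unadjusted p under 0.05. The interaction, which asks whether the response to CCl4 differs between genotypes, passed for 0 of 3 (0.0534% of all genes), with 1 of 3 at an unadjusted p under 0.05, and both unadjusted counts are Thbs2. For Thbs1 the genotypes differed by −0.43 after CCl4 (95% interval −1.34 to 0.48) and by −0.51 in controls (−1.54 to 0.52). The control difference was −0.75 without both control 3 arrays, −1.14 without Lcn2-/- control 3, −0.12 without WT control 3 and 0.00 without Lcn2-/- control 1, and passed in none of these. For the tested Thbs3 probe the intervals were −0.64 to 0.11 after CCl4 and −0.43 to 0.42 in controls. Each of these intervals includes 0, and those of the tested Thbs3 probe were narrower than those of Thbs1. The second Thbs3 probe differed by −0.49 in controls (limma p 0.0210, adjusted p 0.444), so the control result of Thbs3 depends on the probe.

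Thbs4, a pentameric member of tendon and muscle matrix that is also made after tissue injury, was not well above background on any of the 7 control arrays. The image software had put a substitute value in place of the signal there, and these values of 2.88 to 2.95 are no levels. After CCl4 it was well above background on all 9 arrays. WT CCl4 1 to 5 measured 10.58, 11.67, 12.20, 11.99 and 11.95. Lcn2-/- CCl4 1 to 4 measured 6.11, 11.63, 8.42 and 6.58. The 5 WT arrays were thus all high, although their SD of 0.64 was above that of 89.0% of genes in that group, while 3 of the 4 Lcn2-/- arrays lay below all WT arrays and Lcn2-/- CCl4 2 lay inside the WT range.

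Against the lowest detectable signal of the controls, the mean of WT CCl4 was at least 110-fold higher, with single arrays from at least 51.6-fold to at least 158-fold. The mean of Lcn2-/- CCl4 was at least 6.36-fold higher than the same limit in its own controls. Its 4 arrays were at least 1.51-fold, 69.2-fold, 7.49-fold and 2.09-fold above that limit, in the order of their numbers. These bounds hold for the quantile-normalized values alone. With normexp background correction the fitted log2 differences, 5.43 in WT and 2.59 in Lcn2-/-, lay below the bounds of the means. The difference of Lcn2-/- minus WT after CCl4 was −3.49. Leaving out 1 Lcn2-/- CCl4 array gave −2.80 without array 1, −4.64 without array 2, −3.57 without array 3 and −2.95 without array 4, and within slide 2 it was −3.76. The fitted difference between the 2 responses was −3.53, which rests on the substitute values in the controls.

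The spread of Thbs4 in Lcn2-/- CCl4 was wide for this group, with an SD of 2.50, against 0.64 in WT CCl4. Of the 24357 genes tested, 42 had an SD at least as large among these 4 arrays, Thbs4 included. The family was chosen in part for this spread, so its rank is a description and no separate finding. The SD of the tested members there was 0.236 for Thbs1, 0.356 for Thbs2 and 0.298 for Thbs3. On Lcn2-/- CCl4 1 to 4 the Lcn2 probe measured 12.25, 10.61, 11.59 and 11.80. Whether the Thbs4 level of array 2 has to do with the Lcn2 signal was not tested.

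The order of the 4 Lcn2-/- CCl4 arrays by Thbs4 was 2, 3, 4 and 1. Col1a1, the main fibrillar collagen chain and the reference gene for fibrosis, had the same order in a much narrower range, with 15.26, 14.79, 14.39 and 14.37. Thbs1 was also highest on array 2, at 9.18, and lowest on array 4, at 8.61. Thbs2 and Thbs3 were highest on array 4, at 9.66 and 9.23, and lowest on array 1, at 8.82 and 8.52. Among the WT CCl4 arrays, Thbs4 was lowest on array 1, while Col1a1 was lowest on array 5, at 14.94. Thus the family had no common order among the treated livers.

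Over all 16 arrays every pair of members correlated at r of 0.74 or higher, up to 0.92 for Thbs2 with Thbs3, and Thbs1, Thbs2, Thbs3 and Thbs4 share the step from control to CCl4. After subtracting the group means, r was 0.79 for Thbs2 with Comp, 0.55 for Thbs3 with Comp, 0.50 for Thbs1 with Comp, 0.44 for Thbs2 with Thbs3 and 0.39 for Thbs1 with Thbs2. It was 0.16, 0.19, 0.12 and 0.27 for Thbs4 with Thbs1, Thbs2, Thbs3 and Comp, and −0.22 for Thbs1 with Thbs3. These are descriptions over 16 arrays of 4 groups, and 11 of the 16 Comp values and all Thbs4 control values were not well above background.

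The genes whose pattern over the 16 arrays was most like Thbs4 by Pearson's r were Prss46 (0.99), Ctsk (0.99), Galnt17 (0.98), Cd109 (0.98) and Flnc (0.97). By deviations from the group means they were Btbd17 (0.95), Prss46 (0.94), 4930503L19Rik (0.92), Npy (0.92) and Hspb7 (0.89). Ctsk encodes cathepsin K, a collagen-degrading protease, Cd109 a TGF-beta co-receptor, Flnc the muscle filamin and Npy neuropeptide Y. Ctsk was detected on all 16 arrays, and on Lcn2-/- CCl4 1 to 4 it measured 11.13, 14.18, 12.71 and 12.25. Its WT CCl4 arrays lay between 13.86 and 14.70, so array 2 was again the single Lcn2-/- array inside the WT range. Cd109 measured 2.90, 7.37, 5.69 and 5.41 on the same 4 arrays, with 2 of the 4 detected. Of the genes taken by deviations, Btbd17 and Hspb7 were well above background on 3 of the 16 arrays each and 4930503L19Rik on 5. Their r rest largely on signals that were not measured levels. This holds less for Prss46, detected on 8 arrays, all of them CCl4 arrays, and for Npy, detected on 13, among them all CCl4 arrays. Galnt17 was detected on 6 arrays and Cd109 on 7, none of them controls. Over 16 arrays the r of Prss46, Galnt17 and Cd109 thus rest in part on control values that were not measured levels. These genes were picked for their likeness, so their shared order is no separate finding.

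**Figure D3:**
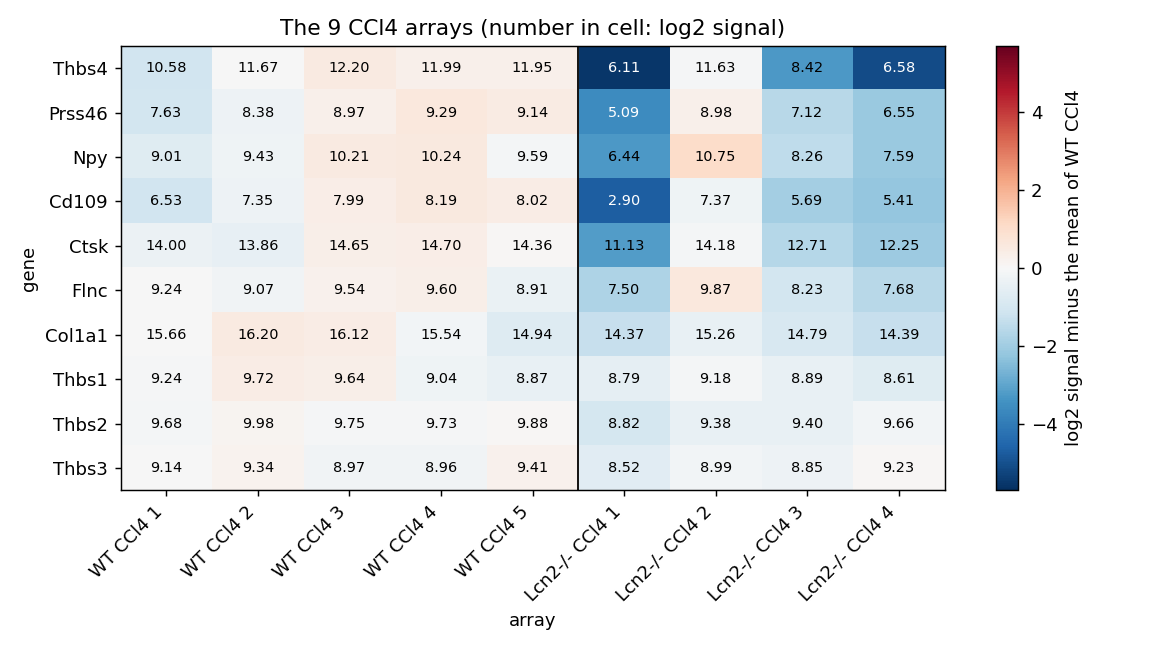
The 9 CCl4 arrays (x axis) and, by row (y axis), Thbs4, 5 genes picked for a pattern like it, Col1a1, Thbs1, Thbs2 and Thbs3. Each cell gives the log2 signal, and its colour the difference from the mean of WT CCl4. Thbs4 runs from 6.11 to 11.63 in Lcn2-/- CCl4, and array 2 of that group is near the WT colours in the upper rows.

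For the other members the most like genes differed. Thbs1 was closest over 16 arrays to Vsir, Pqlc3, B4galt6, Itpr3 and Scube1 (r 0.97 for each), and by deviations to Slc2a3, Pik3ip1, Arhgap30, Gnb4 and Tubb2b (r 0.91 to 0.95). Thbs2 was closest to Lamb1, Prrx1, Cpxm1, Ncam1 and Myo5a (r 0.98 to 0.99), which include a laminin chain, a mesenchymal transcription factor and the adhesion molecule of stellate cells and nerves. By deviations it was closest to Tbkbp1, A530064D06Rik, Armcx2, Chst14 and Wls (r 0.92 to 0.95). Thbs3 was closest to Macroh2a3, Myl1, Mgat3, Shd and Gabra3 (r 0.96 to 0.98), with Macroh2a3 first by deviations too (r 0.91), followed by Spa17, Kiss1r, an unnamed transcript of chromosome 2 and Tmem179 (r 0.87 to 0.88). Myl1 was well above background on no control, so its r rests in part on control values that were not measured levels. Comp was closest to Spata6, Agpat4, Osbpl7, Ier5 and Lxn (r 0.93 to 0.94), and by deviations to Agpat4, Sri, Sipa1, Lxn and Il4i1 (r 0.90 to 0.94). The Comp probe was well above background on 5 of the 16 arrays, so its r rest largely on values that were not measured levels. With Spearman's rho in place of r, 2 of the 5 genes stayed for Thbs4, 1 for Thbs2 and Thbs3, and 0 for Thbs1 and Comp.

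The genes around the family were taken from 4 lists, whose counts are read against the share of all tested genes, of which 8.01% were higher and 8.8% lower in WT, and 6.57% and 5.61% in Lcn2-/-. Without WT control 3 and Lcn2-/- control 3 the higher shares were 11.2% and 8.54%. Of the thrombospondin receptors and ligands, 27 of 29 were tested, and 5 rose and 0 fell in WT, while 5 rose and 1 fell in Lcn2-/-. Without both arrays 8 rose and 0 fell in WT, and 7 rose and 1 fell in Lcn2-/-. In WT the largest rises were in Pdgfrb, the receptor of platelet-derived growth factor on stellate cells, by 1.71 against 1.92 in Lcn2-/- (limma adjusted p 2.72e-05 and 4.99e-05), and Cacna2d1, the calcium channel subunit that binds thrombospondins at synapses, by 1.40 and 1.39 (0.000508 and 0.00231). Cd36, which binds the type 1 repeats, rose by 1.37 and 1.76 (0.0363 and 0.0258), and Vldlr, a lipoprotein receptor, rose by 1.20 and 1.77 (0.047 and 0.0171). Sdc4, a heparan sulphate proteoglycan, fell by 0.75 in Lcn2-/- (0.036). The median difference of the list was 0.25 in WT and 0.33 in Lcn2-/-. Limma called 0 of the 27 between genotypes after CCl4 and 0 in controls, where 2 and 4 had an unadjusted p under 0.05.

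Of the genes for latent TGF-beta and its targets, 21 of 23 were tested, and 11 rose in WT and 8 in Lcn2-/- with 0 lower, beside 8.01% and 6.57% of all genes higher. Without WT control 3 and Lcn2-/- control 3, 14 and 9 rose, with 0 lower. The largest rises were in Ltbp2, a latent TGF-beta binding protein of elastic fibres, by 3.66 and 3.46 (limma adjusted p 1.47e-05 and 9.82e-05), Tgfb3, a TGF-beta ligand, by 2.63 and 2.29 (3.22e-05 and 0.000435), and Ltbp3, which tethers the latent complex, by 2.07 and 2.16 (1.43e-06 and 3.38e-06). Tgfb1 itself differed by 0.47 and 0.70 and did not pass (0.157 and 0.0806). The list's median was 0.49 in WT and 0.55 in Lcn2-/-. Between genotypes limma called 0 of the 21 both after CCl4 and in controls, while 8 and 2 of them had an unadjusted p under 0.05.

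Of the proteins with thrombospondin type 1 repeats outside the family, 29 of 39 were tested, and 13 rose and 2 fell in WT, while 9 rose and 1 fell in Lcn2-/-. Over all genes 8.01% were higher and 8.8% lower in WT, against 6.57% and 5.61% in Lcn2-/-. Without both control 3 arrays 13 rose and 3 fell in WT, and 9 rose and 0 fell in Lcn2-/-. Spon1, a secreted axon guidance protein, counts among the higher genes of both genotypes, but its controls were mostly not measured. Its fitted difference in WT was 2.61 (limma adjusted p 0.00399), with 1 of 4 controls detected, so no rise is read from it. In Lcn2-/- (limma adjusted p 0.0248) it was well above background on 2 of 4 CCl4 arrays and on no control, so no fold is given. Adamtsl1 rose by 1.85 in WT (1.2e-05). Unc5c, a netrin receptor, counts among the 13 but was well above background on 4 WT CCl4 arrays and no other, so it passed the filter through that group, and its mean there was at least 1.34-fold above the limit in WT controls. In Lcn2-/-, Sema5a, a guidance molecule, rose by 1.99 (0.0001) and Papln at least 2.09-fold (0.00269). Hmcn2 fell by 1.38 in WT (0.018), and Ccn6 fell by 0.96 in WT (0.0301) and by 1.04 in Lcn2-/- (0.0484). The Ccn6 values are only partly measured, since it was well above background on 2 of 4 WT controls, 2 of 5 WT CCl4 arrays, 3 of 3 Lcn2-/- controls and 2 of 4 Lcn2-/- CCl4 arrays. The list's median was 1.04 in WT and 0.93 in Lcn2-/-.

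This list also held the genotype differences. Adamtsl2, a fibrillin-binding protein, was lower in Lcn2-/-, with differences of −1.82 after CCl4 and −1.94 in controls (limma adjusted p 0.000957 and 0.00143), and rose by 1.62 in WT and 1.74 in Lcn2-/-. Its probe lies on chromosome 2, 5.28 Mb from that of Lcn2 on mm9, and whether the genotype difference comes with that position was not tested. Spon2 was lower in Lcn2-/- with differences of −1.40 and −1.61 (0.0198 and 0.0153). Sema5b differed by −1.47 in controls (0.0245) and by −1.03 after CCl4 (0.076), where it did not pass. Same-numbered arrays of the 2 control groups correlated, although no label states a pairing. With the number as a block in a fit of these 2 groups, 0 of all genes passed, and so not the deleted Lcn2 either. The control calls of Adamtsl2, Spon2 and Sema5b were thus lost there. The Thbs1 probe lies on the same chromosome as Lcn2, 85.7 Mb away.

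Of the tendon and cartilage matrix genes, where Thbs4 and Comp are best known, 14 of 24 were tested and the others, such as Tnmd, Col2a1 and Tnc, were detected on too few arrays. In WT 4 rose and 1 fell, and in Lcn2-/- 3 rose and 0 fell, beside 8.01% and 6.57% of all genes higher. Without both control 3 arrays 5 rose and 1 fell in WT, and 3 rose and 0 fell in Lcn2-/-. Col12a1, a collagen of fibril surfaces, rose by 1.96 and 2.24 (limma adjusted p 0.000394 and 0.000644), and Fbn1, the microfibril protein fibrillin, by 1.69 and 2.15 (8.81e-05 and 6.38e-05). In WT Fmod rose by 1.83 (0.000406), and Chad fell by 0.62 (0.0238). Cthrc1, also counted, was well above background on the 5 WT CCl4 arrays alone, at least 1.82-fold above the limit in WT controls, and passed the filter through them. In Lcn2-/- Adamts7, a protease that cleaves Comp, rose by 0.88 (0.0238). The list's median was 0.44 in WT and 0.62 in Lcn2-/-. The genotypes differed for 0 of the 14 in limma, with 5 at an unadjusted p under 0.05 after CCl4 and 4 in controls.

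**Figure D4:**
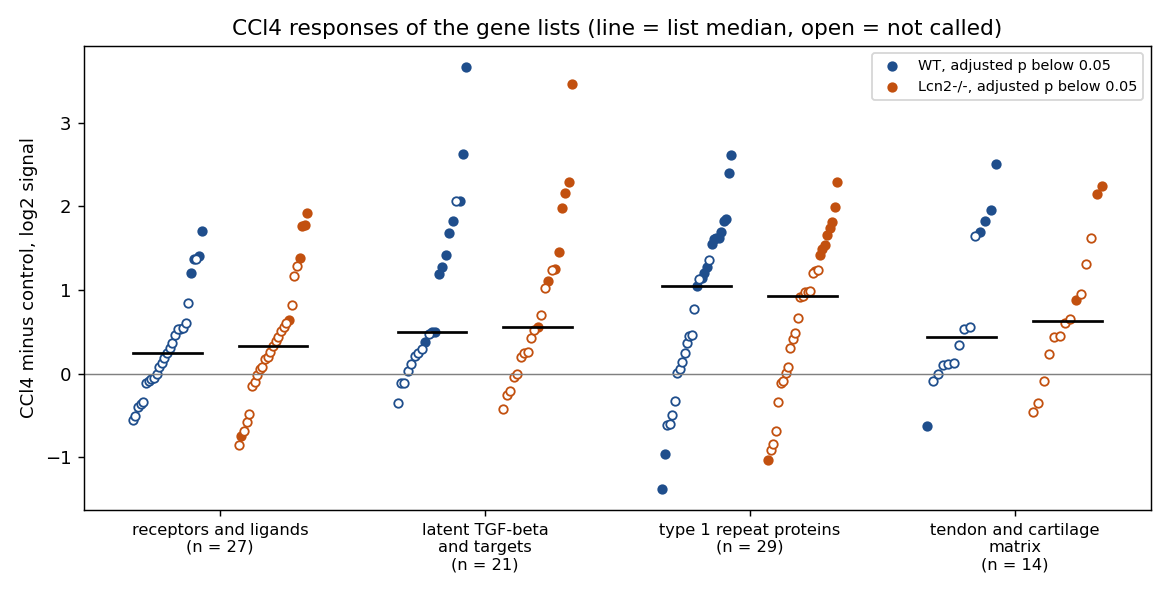
Difference between CCl4 and control on the log2 scale (y axis) of each tested gene of the 4 lists (x axis) in WT and Lcn2-/-, filled where the adjusted p was below 0.05, with a line at each list's median. The highest points are Ltbp2 at 3.66 in WT and 3.46 in Lcn2-/-.

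Markers of cell types that could carry thrombospondin RNA moved beside the members. The shares of all genes, 8.01% higher and 8.8% lower in WT and 6.57% and 5.61% in Lcn2-/-, apply to these and the other cell type lists too. Of 14 myofibroblast markers, 10 rose in WT and 9 in Lcn2-/-, most in Col1a1, by 3.49 (SE 0.453) and 4.21 (SE 0.515). Without WT control 3 and Lcn2-/- control 3 the counts were 11 and 9, and Col1a1 rose by 4.08 (SE 0.311) and 4.20 (SE 0.369). Of 14 markers of portal fibroblasts and mesothelium, 9 and 7 rose, most in Wt1, by 3.56 and 3.05, and without both arrays 7 and 7 rose. The summed level of the myofibroblast markers ranged from 18.24 to 18.46 in WT control, 18.64 to 19.32 in WT CCl4, 18.13 to 18.22 in Lcn2-/- control and 18.48 to 18.95 in Lcn2-/- CCl4. The part of these cells in the rises of Thbs1, Thbs2 and Thbs3 was not tested.

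Platelet markers, given because Thbs1 is a platelet protein, did not pass for any of 11 genes in limma in either genotype, with 1 of 11 at an unadjusted p under 0.05 in each, and without WT control 3 and Lcn2-/- control 3, 1 passed in WT. Their summed level ranged from 13.29 to 14.12 in WT control, 13.44 to 13.84 in WT CCl4, 13.03 to 14.40 in Lcn2-/- control and 13.38 to 13.92 in Lcn2-/- CCl4, and the highest value of both control groups was that of control 3. Pf4, the most specific of them, was detected on all 16 arrays. Skeletal muscle markers, given because Thbs4 is a muscle and tendon protein, had 3 of 12 genes, Ckm, Myh1 and Mb, not well above background on any array. Their summed level was 9.44 to 10.07 in WT control and 9.22 to 9.97 in WT CCl4, and 9.51 to 9.87 and 9.06 to 9.50 in Lcn2-/-. Of the 5 tested, 1 was called higher and 1 lower in WT, and 1 higher and 0 lower in Lcn2-/-. The WT calls were Myl1, a myosin light chain, at least 2.25-fold higher, and Myh2, at least 5.57-fold lower, and both passed the filter through the group where they were high. In Lcn2-/- the call was Myl1 again, which was well above background on 2 of 4 CCl4 arrays and on no control, so no fold is given. Hepatocyte markers did not pass for any of 10 genes in limma in either genotype, with 1 of 10 at an unadjusted p under 0.05 in each, and all 10 were well above background on every array.

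Other cell type lists are read against the 8.01% of all genes that were higher in WT and the 6.57% in Lcn2-/-, and the 8.8% and 5.61% that were lower. Of 11 neutrophil markers, 8 rose in WT and 2 in Lcn2-/-. Among the 8, Mmp9 passed the filter through the WT CCl4 arrays where it was high, being well above background on 4 of them and on 1 other array. These counts turn on WT control 3 and Lcn2-/- control 3, since without both 10 of the 11 rose in WT and 9 in Lcn2-/-, beside 11.2% and 8.54% of all genes. Of 12 macrophage markers 5 rose and 2 fell in WT while 5 rose in Lcn2-/-, and without both arrays 7 rose in each, with 2 lower in WT. Of 11 markers of quiescent stellate cells, 4 rose and 2 fell in WT, and 3 rose and 1 fell in Lcn2-/-, with 4 and 1 there without both arrays. The most changed macrophage marker in WT was Gpnmb, a glycoprotein of lipid-laden macrophages, by 7.10 (limma adjusted p 2.89e-06). It was also the most changed in Lcn2-/-, but was well above background on 0 of 3 controls there, so no exact rise is given. In controls, limma called 1 of the 12 macrophage markers lower in Lcn2-/- than in WT, a call lost with the replicate block in these 2 groups. The most changed neutrophil marker, Ltf, the granule protein lactoferrin, was well above background on 1 of 4 WT controls and 5 of 5 WT CCl4 arrays, and its fitted difference of 4.32 (limma adjusted p 0.0204) rests on controls that were mostly not measured. Of the smooth muscle markers 1 of 7 was higher in each genotype, and of the endothelial markers 1 of 12, with 1 lower in WT. Such single calls lie near the share over all genes and are no result about the lists. The most changed endothelial marker was Lyve1, a hyaluronan receptor, which rose by 1.52 in WT (limma adjusted p 0.028). Of 9 lymphocyte markers 3 fell in WT and 1 in Lcn2-/-, and without both arrays 2 rose and 2 fell in WT, and 2 rose and 1 fell in Lcn2-/-. Of the bile duct markers 1 of 8 was higher in each genotype, which was Spp1, the secreted protein osteopontin, by 1.67 and 2.10 (limma adjusted p 0.0193 and 0.0147), and without both arrays 1 more was lower in WT. Spp1 is also on the macrophage list and counts among the higher genes there too. Pancreas and adipose markers, checked as tissue that can be taken with the liver, each had 1 higher and 1 lower gene in WT, of 5 and 4 tested, and 0 and 1 higher in Lcn2-/-. The lower adipose gene, Cfd, was well above background on 4 of 4 WT controls, no WT CCl4 array and 1 array of each Lcn2-/- group, so it passed the filter through the group where it was high. In Lcn2-/- the 5 pancreas genes had 1 at an unadjusted p under 0.05 in limma.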

How the data were processed

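Cy3-labelled liver RNA of 16 samples was measured on Agilent one-colour mouse arrays read with Feature Extraction 10.7.3.1. Per the file headers, the deposited intensity values are linear, background subtracted and detrended by the image software, and not normalized between arrays. The authors also deposited log2 values of the same arrays, quantile normalized, which served as an alternative. Groups came from the sample titles. The log2 processed signal of 59305 gene spots (3671 control spots were left out) was quantile normalized, outlier spots (0.377%) were dropped and spots of 1 probe were averaged. A probe was kept where 3 or more arrays were well above background (33014 probes), with the probe of highest mean for each of 24357 genes. RefSeq accessions named 49.8% of the gene spots, through a table of GRCm38.p6. limma 3.58.1 in R 4.3.3 fitted 1 model over 4 groups with 5 contrasts and Benjamini-Hochberg adjustment, and was tested on simulated data. The number of arrays limits the precision. Where no array of a group was well above background, folds are bounds against the lowest signal well above background of each array.

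Genes outside the family were named by rule: in each list at most 3 higher and 3 lower per response and all that differed between genotypes, the most changed marker of a cell type list, and the 5 genes with the highest r. Tgfb1, the cell type lists set beside Thbs1 and the fits without both control 3 arrays were chosen after seeing the data. Members and lists were chosen with earlier results of these data known. Same-numbered arrays of WT control and Lcn2-/- control had r of deviations of 0.23, 0.37 and 0.55, although no label states a pairing. Those of WT CCl4 and Lcn2-/- CCl4 had 0.01, 0.25, 0.03 and −0.22, and those of other group pairs −0.16 to 0.17. Arrays of different numbers were not compared in this way. The alternatives were other scalings, background correction, filters, slide and replicate blocks, array weights, and leaving out each array.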

Additional observations from a re-analysis of the deposited data

Results flagged for a closer look

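WT control 4 stood apart from the other WT controls for the tested Thbs3 probe, at 7.50 against 7.92 to 7.97, with a gap of 0.89 of the group's range. The second Thbs3 probe was also lowest there, at 7.52, without passing the limit for a separate sample. The same array stood apart for Thbs4, with a gap of 0.861 of the range, but the 4 values lie within 0.033 and are substitute values, not well above background. Chance marks about 1 in 20 groups of this kind, and 18 groups were looked at.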

How the results depend on the processing

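Thbs2 kept its rise in both genotypes under all 31 and 30 alternatives, and no result changed direction among those that passed. Comp is counted among the 4 members fitted. With slide as a fixed block, 2 members were called in WT and 1 in Lcn2-/-. Thbs1 rose by 2.20 in WT and 2.26 in Lcn2-/- and Thbs3 by 1.05 in Lcn2-/-, none passing (limma adjusted p 0.106, 0.235 and 0.173). These fits rest on WT CCl4 1, the single CCl4 array on the slide of the controls. Within slide 1, where WT CCl4 was 1 array, Thbs1 rose by 2.20, Thbs2 by 2.36 and Thbs3 by 1.31 in WT, and only these sizes are read. With the replicate block in a fit of the 2 groups, the Lcn2-/- rises were 2.43 for Thbs1 and 0.97 for Thbs3 (0.112 and 0.102), leaving 1 call. Same-numbered arrays of these groups had r of deviations of 0.01 to 0.02. Beside these, Comp in WT and Thbs2 in controls, the replicate block changed no other call of a member. The slide as a random block had a correlation of −0.0186 and changed no call.

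The fitted Comp difference in WT was 1.41 with 75th percentile scaling, 0.32 with normexp, 0.61 in the authors' deposited values, 1.70 with no filter and with only the 2 groups, 1.08 with the slide as a fixed block and within slide 1, and 1.64 with the replicate block in either fit, none passing. Leaving out single arrays gave 1.40 to 2.24. The stricter filter removed Comp. The fitted Thbs4 difference, taken against control values that are no levels, was 5.43 in WT with normexp, 6.82 in the deposited values and 7.69 with the slide as a fixed block or within slide 1, and 2.59 in Lcn2-/- with normexp. Both normexp values lie below the Thbs4 bounds, which hold for the quantile-normalized values alone.

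Thbs2 in controls no longer passed with cyclic loess (−1.02), normexp (−0.73), within slide 1 or only the 2 groups (−1.11), the replicate block in these groups (−1.09), or without WT control 3 and Lcn2-/- control 3 together (−0.96, chosen after seeing the data). Leaving out single arrays gave −1.24 to −0.95. The call was lost in 4 of these 16 fits, and kept in those with the lowest and highest values.

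The count of all genes called in WT was 4094 and became 1302 with the slide as a fixed block, 703 within slide 1, 7054 with array weights and 1638 with the replicate block of 2 groups, and that in Lcn2-/- was 2968 and became 425, 6954 and 72 for the block, the weights and the replicate block, and 1757 with only the 2 groups. After CCl4 the genotype count of 155 became 87 within slide 2, 323 with weights, 93 with only the 2 groups, and 92 and 20 with the replicate block. In controls 129 became 216 with no filter, 1270 with weights and 0 with the replicate block of 2 groups, and 13 interactions became 7 with normexp, 3 in the deposited values and 6 with the replicate block or with trend and robust options. Scaling to the 75th percentile moved the median of all genes to −0.16 in WT and −0.14 in Lcn2-/-, and the share of changed genes that were higher from 47.7% to 30.7% and from 53.9% to 36.3%. These counts, and with them the shares of all genes given beside the members and lists, also turned on single arrays. In WT the count was 2498 without WT control 1 and 2581 without WT control 2, and over all single arrays left out it ran from 2498 to 5110. The Lcn2-/- count was 1695 and 1683 without Lcn2-/- control 1 and 2, in a range of 1683 to 3200. The genotype count after CCl4 was 76, 97 and 99 without WT CCl4 2, 4 and 5, and 102 and 76 without Lcn2-/- CCl4 1 and 3, in a range of 76 to 187, and 255 without both control 3 arrays. The 13 interactions became 8 without Lcn2-/- CCl4 4.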
